A study of Mus musculus with 9 samples.

Results

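The zona pellucida genes Zp1, Zp2 and Zp3, the oocyte secreted protein genes Oosp1, Oosp2 and Oosp3, and Astl were followed in mouse embryos after pronuclear transfer. These 7 genes were taken by symbol from a table of 19359 genes, and all 7 were listed in it. The study compared sham pronuclear transfer (SPN, the control) with early (EPN) and later (LPN) pronuclear transfer, in which a zygote's pronuclei are placed in a different cytoplast. Each of the 3 groups had 3 libraries, A, B and C, and each library held the poly(A) RNA of 3 pooled embryos taken 34 h after fertilization. The series' title places the question at the first embryonic replication, that is, whether the timing of the transfer around it matters for the outcome. Per the labels, eggs came from B6D2F1 females of 8 to 12 weeks primed with 7 to 8 IU of pregnant mare serum gonadotropin and 5 IU of human choriogonadotropin, and were taken 14 to 16 h after the latter. The same label text stands on all 9 samples and also describes germinal vesicle oocytes freed from follicles in medium with Milrinone, and their selective enucleation to make abnormal cytoplasts. It does not say which group, if any, received such cytoplasts, and it names neither the sire nor the hours of the early and later transfers.

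The zona pellucida is the glycoprotein coat of the mammalian egg, and its proteins are made by the growing oocyte. ZP2 and ZP3 build its filaments, ZP1 links them, and mouse sperm bind to ZP2. Astl encodes ovastacin, a metalloprotease released from the cortical granules at fertilization that cleaves ZP2 and so blocks binding of further sperm. The Oosp genes encode small secreted proteins of the oocyte that are related in sequence to placental PLAC1. The messages of oocyte genes such as these are stored during oocyte growth, and much of the store is degraded between meiotic maturation and early cleavage.

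Levels are in CPM, the reads of a gene as a share of its library scaled to a fixed total, so a level can also differ because other transcripts differ. In these bulk samples fewer cells with a transcript and less of it per cell cannot be told apart. Library totals ran from 7611781 to 15559218 reads, and a single read equalled 0.0643 to 0.131 CPM. Markers of 2-cell embryos summed to 1382 to 3137 CPM in SPN, 3687 to 5399 CPM in EPN and 4330 to 6870 CPM in LPN, with all 8 detected. The 10 oocyte markers summed to 1102 to 1685, 941 to 1377 and 566 to 830 CPM in the same order. Of 15 cumulus and granulosa markers, 10 were listed and summed to 134 to 206 CPM over the 9 libraries, of which Nr5a2 alone gave 103 to 171 CPM; Foxl2 was at 0 throughout. The 10 listed sperm markers of 12 summed to 6.57 to 26.8 CPM. The 3 listed blood markers of 8 summed to 42.5 to 103 CPM in SPN, 39.1 to 82.4 CPM in EPN and 11.6 to 36.6 CPM in LPN. The part of other cells in the results was not tested.

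After later transfer Zp3 was higher and Oosp1 and Oosp3 were lower than after sham transfer, while Zp1, Zp2, Oosp2 and Astl did not pass. So 3 of 7 genes were called, 1 higher and 2 lower, where 8.8% of the 14876 tested genes were called in this comparison, 3.26% higher and 5.54% lower. An unadjusted p under 0.05 was held by 5 of the 7 genes and by 26.9% of all tested genes. A call is an adjusted p under 0.05 in limma, Benjamini-Hochberg adjusted over all tested genes. In the early comparison 0 of 7 were called by limma, with a background of 0.108% (0.0739% higher and 0.0336% lower). By limma 3 of 7 had an unadjusted p under 0.05, with a background of 11%. With edgeR 0 of all 14876 genes were called, so no member could be. DESeq2 called 116 of the 14876 genes and 0 of the 7 members. Between later and early transfer 0 of 7 were called by limma, with a background of 1.53% (0.692% higher and 0.84% lower). There 3 of 7 had an unadjusted p under 0.05 by limma, with a background of 19.3%. Of the members edgeR called 0 and DESeq2 only Zp3, where they called 17 and 935 of the 14876 genes. The F test over the 3 groups called Zp3, Oosp1 and Oosp3 (adjusted p = 0.0357, 0.0334 and 0.00905), with a background of 5.73%. Both transfer groups are set against the same SPN libraries, so the early and later comparisons are not independent.

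**Figure D1:**
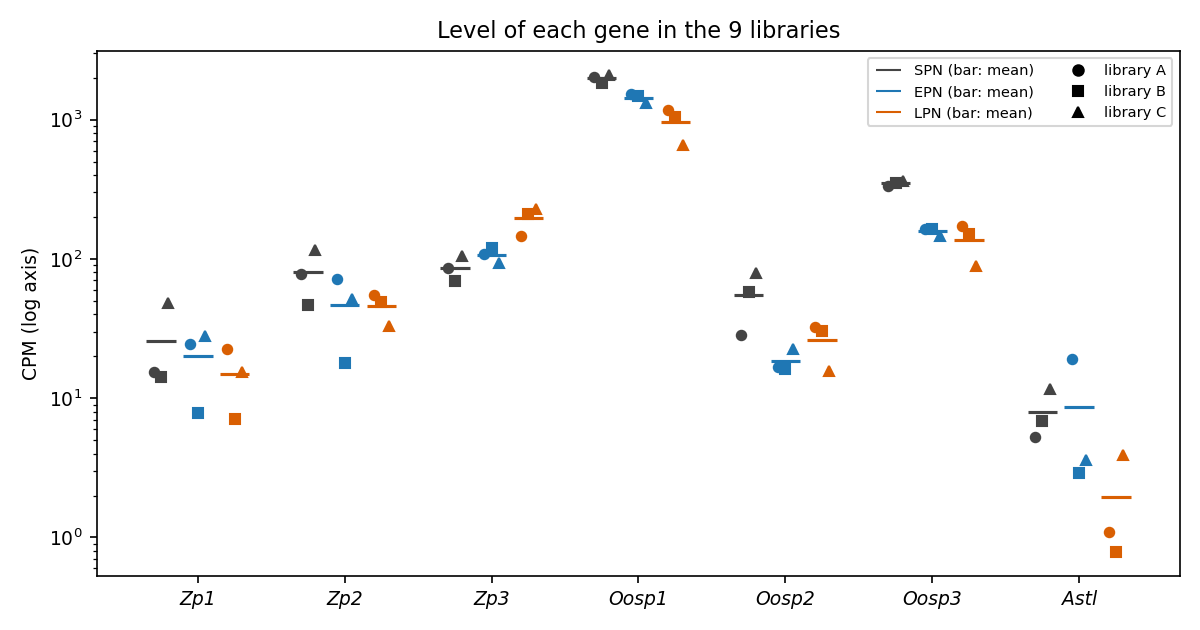
CPM of each gene (log axis) in the 9 libraries, by group (SPN grey, EPN blue, LPN orange) and library (A circle, B square, C triangle), with bars at the mean of 3 libraries. Oosp1 lay above all other genes in each library, from 655 to 2107 CPM, and the LPN points of Zp3 lay above those of SPN and EPN.

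Promoter windows were available for 4 of the 7 members, Zp3, Oosp1, Oosp2 and Astl. Those of Zp3 and Oosp1 are shown because these genes were called in opposite directions after later transfer. The windows are the 250 bases before the RefSeq start in GRCm38.p6, an older build than the GRCm39 of the authors' processing, at chr5:135979855-135980104 on the plus strand for Zp3 and chr19:11691052-11691301 on the minus strand for Oosp1. Capitals mark E-boxes, the letters CANNTG, which read the same on both strands.
Zp3: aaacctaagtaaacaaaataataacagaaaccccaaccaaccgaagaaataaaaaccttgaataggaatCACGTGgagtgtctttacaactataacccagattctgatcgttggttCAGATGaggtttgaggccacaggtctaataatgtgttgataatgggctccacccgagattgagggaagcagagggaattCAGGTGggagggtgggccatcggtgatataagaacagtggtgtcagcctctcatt
Oosp1: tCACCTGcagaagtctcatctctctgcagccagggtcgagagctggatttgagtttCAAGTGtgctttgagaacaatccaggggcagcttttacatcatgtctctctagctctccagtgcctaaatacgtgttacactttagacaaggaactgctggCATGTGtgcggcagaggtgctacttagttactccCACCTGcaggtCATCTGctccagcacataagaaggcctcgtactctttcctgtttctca
The Zp3 window held 3 E-boxes. The one with the letters CACGTG began 181 bases before the start, that with CAGATG 134 bases and that with CAGGTG 55 bases before it. The Oosp1 window held 5 E-boxes, at 249, 194, 93, 59 and 48 bases before the start; the letters CACCTG at 249 and 59 are CAGGTG on the other strand. An E-box was present in 66.2% of 32851 windows of this length, and CAGGTG on either strand in 17.2%. The letters TATAA on either strand, present in 22.8% of windows, occurred in the Zp3 window at 160 and 29 bases before the start and were not in the Oosp1 window. Matches are descriptions of the letters only.

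Zp3, which encodes a filament protein of the zona, was the member that went up. It stood at 85.5, 69.4 and 105 CPM in SPN A, B and C, at 109, 120 and 93.3 CPM in EPN A, B and C, and at 147, 212 and 230.1 CPM in LPN A, B and C. All 3 LPN libraries were above every SPN and EPN library, while SPN and EPN overlapped. The means of the 3 groups were 86.6 ± 17.8, 107 ± 13.2 and 196 ± 43.9 CPM (SD, n = 3). In LPN against SPN it rose 2.24-fold on the log2(CPM + 1) scale (log2 difference 1.16, SE 0.30, limma adjusted p = 0.0166). EPN against SPN gave a log2 difference of 0.32 (95% interval -0.29 to 0.93, limma adjusted p = 0.72). LPN against EPN gave 0.85 (95% interval 0.23 to 1.46, limma adjusted p = 0.12), so a difference between the transfer times did not pass, although DESeq2 called it (adjusted p = 0.0147). The call in LPN against SPN was lost without SPN B, SPN C or LPN B (adjusted p = 0.0803, 0.053 and 0.0889), with fewer libraries in each case.

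Zp2, which encodes the zona protein that sperm bind and that ovastacin cleaves, had its lowest value in EPN B. Its levels were 78.6, 47.0 and 115 CPM in SPN A, B and C, 71.7, 18.0 and 51.3 CPM in EPN A, B and C, and 55.5, 49.4 and 33.1 CPM in LPN A, B and C. The 3 groups overlapped, and the means of 80.3 ± 34.1, 47.0 ± 27.1 and 46.0 ± 11.6 CPM (SD, n = 3) came with wide spreads. The log2 difference was -0.87 in EPN against SPN (95% interval -1.72 to -0.03, limma adjusted p = 0.437) and -0.73 in LPN against SPN (-1.58 to 0.12, adjusted p = 0.259). The intervals thus span large falls as well as little or no difference.

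Zp1, which encodes the protein that links zona filaments, was the lowest of the zona genes. It stood at 15.4, 14.3 and 48.0 CPM in SPN A, B and C, at 24.5, 7.89 and 27.9 CPM in EPN A, B and C, and at 22.4, 7.09 and 15.5 CPM in LPN A, B and C. SPN C was above all other libraries, library B was lowest in each group, and the groups overlapped. Neither early (log2 difference -0.30, 95% interval -1.40 to 0.79, limma adjusted p = 0.868) nor later transfer (-0.66, -1.75 to 0.44, adjusted p = 0.45) passed against SPN. The sign for early transfer turned to 0.24 without SPN C and to 0.23 without EPN B.

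Astl, the gene of the ZP2-cleaving protease, was the member with the fewest reads. Its levels were 5.23, 6.91 and 11.5 CPM in SPN A, B and C, 19.2, 2.89 and 3.596 CPM in EPN A, B and C, and 1.09, 0.788 and 3.94 CPM in LPN A, B and C. These rest on 73 to 132 reads in SPN, 37 to 266 in EPN and 17, 6 and 47 in LPN A, B and C. EPN A held the highest value of the 9 libraries, and every LPN library was below every SPN library. In LPN against SPN the log2 difference was -1.69 (SE 0.68, 95% interval -3.07 to -0.31), which did not pass (limma adjusted p = 0.105). In EPN against SPN it was -0.26 (95% interval -1.64 to 1.12, limma adjusted p = 0.921), although the EPN mean of 8.57 ± 9.23 CPM was above the SPN mean of 7.90 ± 3.27 CPM (SD, n = 3).

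Oosp1 was the most abundant member. Among all 19359 genes it ranked 28 in SPN C, its highest place, and 199 in LPN C, its lowest. It stood at 2019, 1838 and 2107 CPM in SPN A, B and C, at 1527, 1481 and 1312 CPM in EPN A, B and C, and at 1179.7, 1042 and 655 CPM in LPN A, B and C. The 3 groups did not overlap, with SPN highest, then EPN, then LPN, and LPN C lowest of all. The means were 1988 ± 137, 1440.2 ± 113 and 959 ± 272 CPM (SD, n = 3). Oosp1 fell 2.13-fold in LPN against SPN (log2 difference -1.09, SE 0.27, limma adjusted p = 0.0129). Against SPN the early group had a log2 difference of -0.47 (95% interval -1.01 to 0.08, limma adjusted p = 0.539), and LPN against EPN gave -0.63 (-1.18 to -0.08, adjusted p = 0.197). The call was lost with median-of-ratios scaling (-0.91, adjusted p = 0.0914), TMM scaling (-0.94, 0.076), edgeR (-0.88, 0.0959) and no filter (0.0514), and without SPN C, LPN B or LPN C (0.0812, 0.0504 and 0.0529).

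Oosp3 separated SPN from both transfer groups. Its levels were 333, 351 and 361 CPM in SPN A, B and C, 164, 164 and 146 CPM in EPN A, B and C, and 174, 151 and 88.5 CPM in LPN A, B and C. Every transfer library was below every SPN library by a wide margin, and EPN and LPN overlapped. The means were 349 ± 14.2, 158 ± 10.1 and 138 ± 44.1 CPM (SD, n = 3). Oosp3 fell 2.62-fold in LPN against SPN (log2 difference -1.39, SE 0.29, limma adjusted p = 0.00473), and only edgeR, of 19 alternatives, lost this call (adjusted p = 0.0507). For EPN against SPN the log2 difference of -1.14 (SE 0.29, 95% interval -1.72 to -0.55) did not pass over all genes (limma adjusted p = 0.103). Without SPN A it did (-1.17, adjusted p = 0.028), where 451 of 14876 genes were called in place of 16. LPN against EPN gave -0.25 (95% interval -0.84 to 0.34, limma adjusted p = 0.664).

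Oosp2, the least abundant of the Oosp genes, had its lowest mean after early transfer and its lowest single value in LPN C. It stood at 28.4, 57.4 and 78.8 CPM in SPN A, B and C, at 16.6, 16.3 and 22.5 CPM in EPN A, B and C, and at 32.4, 30.5 and 15.8 CPM in LPN A, B and C. EPN lay below SPN without overlap, whereas LPN A and LPN B lay above SPN A. The log2 difference was -1.42 in EPN against SPN (SE 0.43, limma adjusted p = 0.195) and -0.99 in LPN against SPN (SE 0.43, adjusted p = 0.13). EPN and LPN overlapped, with a log2 difference of 0.43 in LPN against EPN (limma adjusted p = 0.606). Without SPN A, the SPN library lowest in Oosp2, both differences from SPN passed (limma adjusted p = 0.0183 and 0.023, log2 differences -1.82 and -1.39). Calls among all tested genes then rose from 16 to 451 in EPN against SPN and from 1309 to 2733 in LPN against SPN.

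Counting error was small beside the spread between libraries for most of these values. For Oosp3 in SPN the coefficient of variation over libraries was 4.07% and that of counting reads alone 1.54%, and for Zp2 in EPN they were 57.7% and 4.77%. For Astl in LPN they were 89.6% and 28.7%.

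**Figure D2:**
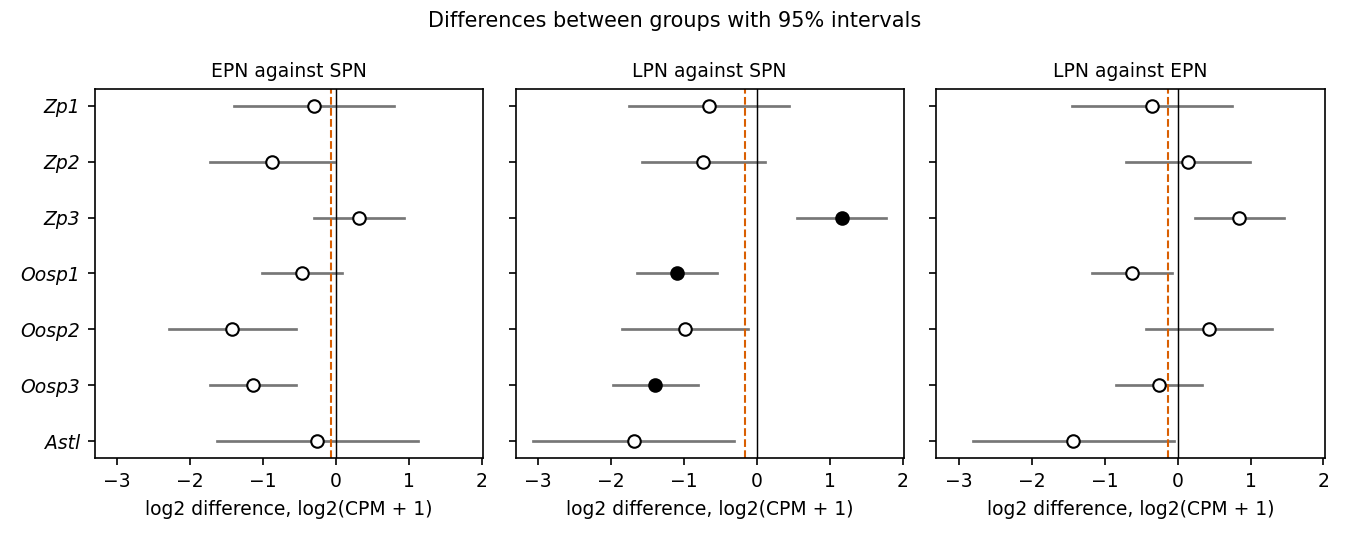
Log2 differences (log2(CPM + 1) scale) of the 7 genes in 3 comparisons, with 95% intervals from limma; filled points passed at an adjusted p under 0.05, open points did not, and the dashed line is the median of all tested genes. Only Zp3, Oosp1 and Oosp3 in LPN against SPN are filled.

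Groups that did not overlap were counted in the same way. In EPN against SPN the 3 Oosp genes did not overlap, all lower, against 14.6% of all tested genes (7.07% higher and 7.56% lower). In LPN against SPN 4 of 7 genes did not overlap, Zp3 above and Oosp1, Oosp3 and Astl below, against 27.5% (11.3% higher and 16.2% lower). In LPN against EPN 2 of 7 did not overlap, Zp3 above and Oosp1 below, which is near the background of 26.6% (11.3% higher and 15.3% lower). The two-sided exact permutation test gave p = 0.1 for each of these differences in mean CPM, the smallest value that 3 against 3 libraries allow.

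The scale of CPM matters for these directions, because the tested genes as a whole had a median log2 difference below 0. It was -0.07 for the early and -0.17 for the later group against SPN, and -0.14 for LPN against EPN. Relative to it, the later transfer differed from sham by 1.33 for Zp3, -0.92 for Oosp1, -1.22 for Oosp3, -0.82 for Oosp2, -1.52 for Astl, -0.56 for Zp2 and -0.49 for Zp1. With median-of-ratios scaling that median was -0.02 in LPN against SPN. The share of higher genes among all calls then moved from 37.1% (485 higher, 824 lower) to 55.5% (675 higher, 541 lower). It moved from 45.2% to 70.9% in LPN against EPN, and from 68.8% of 16 calls to 100% of 3 in EPN against SPN. The 7 members kept their signs in LPN against SPN under both rescalings, with Zp3 at 1.35 and Oosp3 at -1.20 by median-of-ratios. Zp3 and Oosp3 also kept their calls. Oosp1, at -0.91 by median-of-ratios and -0.94 by TMM scaling, lost its call under both.

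Ratios within a library do not depend on library scaling. The share of Zp3 in the summed CPM of the zona genes was 47.6%, 53.1% and 39.2% in SPN A, B and C, 53.1%, 82.2% and 54.1% in EPN A, B and C, and 65.3%, 78.9% and 82.6% in LPN A, B and C. LPN lay above SPN without overlap. EPN reached from the top of SPN to the top of LPN, with EPN B, the library lowest in Zp2, at its upper end. The ratio of Zp3 to Zp2 CPM averaged 1.16 ± 0.288 in the SPN group, 3.33 ± 2.88 after early and 4.63 ± 2.18 after later transfer (SD, n = 3). It was below 1 in SPN C alone, at 0.912. Together the zona genes reached 193 ± 69.7, 174 ± 29.8 and 257 ± 28.7 CPM in the same order.

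Among the Oosp genes the ratio of Oosp1 to Oosp3 differed between all 3 groups with little spread. It was 6.06, 5.23 and 5.84 in SPN A, B and C, 9.33, 9.03 and 8.97 in EPN A, B and C, and 6.79, 6.91 and 7.41 in LPN A, B and C. The groups did not overlap, and EPN, not LPN, was farthest from SPN. Oosp3 was thus lower relative to Oosp1 in both transfer groups than in SPN. Together the Oosp genes reached 2392 ± 150.1 CPM in the SPN group, 1617 ± 119 CPM after early and 1123 ± 325 CPM after later transfer (SD, n = 3). As sums and ratios over chosen genes these values carry no test.

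**Figure D3:**
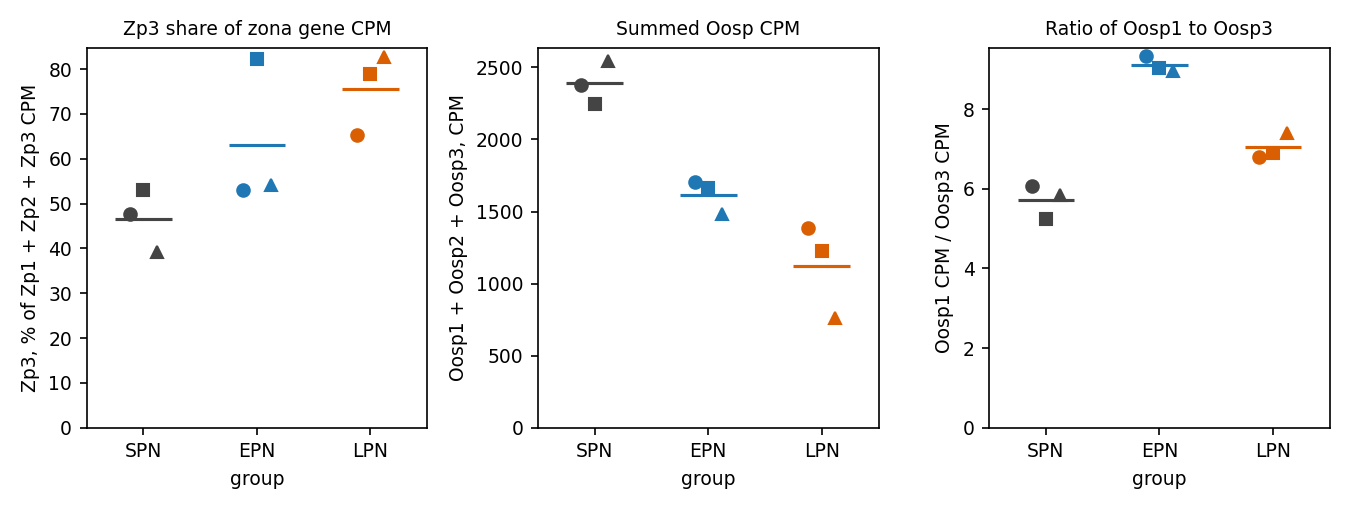
Share of Zp3 in the CPM of Zp1, Zp2 and Zp3 (%, left), summed CPM of the Oosp genes (middle) and ratio of Oosp1 to Oosp3 CPM (right) in each library (A circle, B square, C triangle), with bars at the mean of 3 libraries. The Oosp1 to Oosp3 ratio ran from 5.23 to 6.06 in SPN, 6.79 to 7.41 in LPN and 8.97 to 9.33 in EPN.

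Levels of different genes were compared per kilobase of exon, with lengths from the GENCODE M21 annotation. In SPN the order was Oosp1 (2045 ± 141 CPM per kb), Oosp3 (424 ± 17.2), Oosp2 (81.0 ± 37.3), Zp3 (65.5 ± 13.5), Zp2 (29.5 ± 12.5), Zp1 (13.1 ± 9.68) and Astl (3.08 ± 1.28; SD, n = 3). The ranges of the neighbours Oosp2 and Zp3 overlapped, as did those of Zp2 and Zp1, and all other neighbours were apart. In EPN Zp3 (81.0 ± 10.01 CPM per kb) stood above Oosp2 (27.3 ± 5.18) without overlap. In LPN Zp3 (148 ± 33.2 CPM per kb) overlapped with Oosp3 (167 ± 53.6), and the other neighbours did not overlap.

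Within groups the member pairs with the highest Pearson r of deviations from the group means were Oosp1 with Oosp3 and Zp1 with Zp2. The other pairs ran from -0.46 for Zp3 with Oosp3 to 0.60 for Oosp2 with Oosp3. Oosp1 and Oosp3 deviated together from their group means, with a Pearson r of 0.97 over 9 libraries, which was 0.76 without LPN C, the library lowest in both. Zp1 and Zp2 had an r of 0.73, which was 0.52 without EPN B. Zp3 and Oosp1 ran opposite over the 9 libraries (r = -0.86), while the r of their deviations from the group means was -0.32. These values describe libraries that share groups and scaling, and they carry no test.

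**Figure D4:**
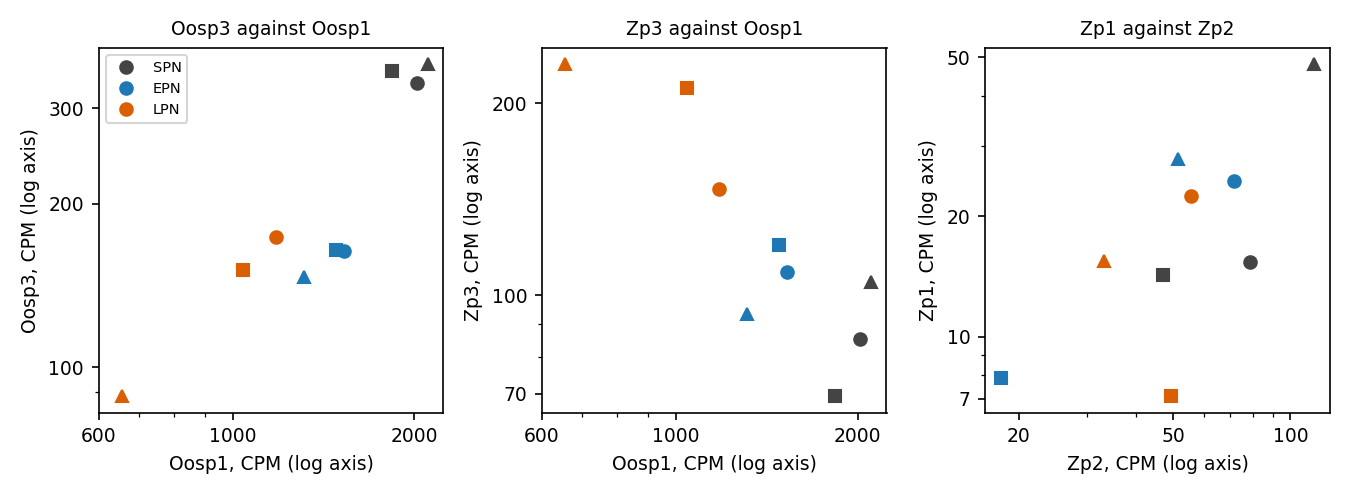
CPM of Oosp3 against Oosp1 (left), Zp3 against Oosp1 (middle) and Zp1 against Zp2 (right) in the 9 libraries (log axes; SPN grey, EPN blue, LPN orange; A circle, B square, C triangle). LPN C, at 655 CPM of Oosp1 and 88.5 CPM of Oosp3, lies at the low end of the left panel, and EPN and LPN lie apart from SPN at 333 to 361 CPM of Oosp3.

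Other genes with the most similar pattern were ranked by Pearson r of log2(CPM + 1) over the 9 libraries among the 9149 tested candidates that averaged 5 CPM or more. For Zp3 they were Ccdc77 (r = 0.96), Etfrf1 (0.96) and Shoc1 (0.95), the last known as a meiotic recombination gene. For Oosp1 they were the small GTPase gene Rap1a, Tnfaip8 and the Rab GTPase gene Rab8b (0.97, 0.97 and 0.96). For Oosp3 they were Gabrr3, the astacin protease gene Tll1 and the phosphatase gene Ptpro (0.97, 0.97 and 0.96), and for Oosp2 the signal peptidase gene Sec11a (0.96), Ehbp1 (0.95) and Tmem248 (0.95). For Zp2 they were the exonuclease gene Exo1 (0.96), Tmem177 (0.93) and the DNA polymerase gene Polb (0.93). Sort1, Csk and Armc2 (0.94, 0.94 and 0.92) were nearest to Zp1, and Dgkh, Cacnb3 and Csnk1d (0.96, 0.96 and 0.95) to Astl. They are the highest of 9149 values each, over libraries that share groups and scaling, and are given as descriptions.

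The Oosp genes also share a place in the genome. In the RefSeq annotation of GRCm38.p6 Oosp2, Oosp1 and Oosp3 follow each other on chromosome 19 with no protein-coding gene between them. On the side of Oosp2 the next gene, Ms4a3, had no read in any library. On the side of Oosp3 the next gene, Cblif, which encodes gastric intrinsic factor, did not exceed 1.51 CPM. The gene after it, the mitochondrial ribosomal protein gene Mrpl16, averaged 43.1, 57.8 and 81.4 CPM in the 3 groups in turn, in the direction opposite to Oosp1 and Oosp3 (LPN against SPN log2 difference 0.89, limma adjusted p = 0.0911). Zp1 lies on the same chromosome with 24 protein-coding genes between it and Oosp2, while Zp2, Zp3 and Astl lie on chromosomes 7, 5 and 2.

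Genes that work with the zona and at egg activation were examined as 7 lists of 80 genes, of which 75 were in the table and 67 were tested. In LPN against SPN 3 of 67 rose and 11 fell, where 3.26% and 5.54% of all tested genes did. By limma 32 of 67 had an unadjusted p under 0.05 (background 26.9%). The median log2 difference was -0.72 against -0.17 for all genes. With median-of-ratios scaling 4 rose and 8 fell, where 675 and 541 of all 14876 tested genes did. With edgeR 0 rose and 3 fell, where 193 and 284 of all genes did. By edgeR 29 of 67 had an unadjusted p under 0.05, as did 3547 of all genes. DESeq2 called 4 higher and 13 lower of the 67, and 954 and 936 of all genes. Without SPN C limma called 0 higher and 1 lower (40 and 56 of all genes). There 21 of the 67 had an unadjusted p under 0.05 by limma, as did 2640 of all genes. Without LPN B limma called 1 and 1 (73 and 131 of all genes), and without SPN A 5 and 17 (980 and 1753). In EPN against SPN limma called 0 of 67 (background 0.108%), with 9 at an unadjusted p under 0.05 (background 11%). With edgeR 0 of 67 and 0 of all genes were called, and with DESeq2 0 of 67 and 116 of all genes. The limma median was -0.17. In LPN against EPN 2 of 67 fell by limma and 0 rose (background 0.84% lower and 0.692% higher), and 23 had an unadjusted p under 0.05 (background 19.3%). Here edgeR called 0 of the 67 and 17 of all genes. DESeq2 called 7 of the 67, 2 higher and 5 lower (558 and 377 of all genes). The limma median was -0.56 against -0.14 for all genes. The summed oocyte markers given above were also lowest in LPN. They are not a fully separate observation, because Gdf9, Bmp15 and Padi6 stand both among these markers and in the 7 lists. The part of the markers in these counts was not tested.

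Of 8 tested zona gene transcription factors and oocyte regulators, 2 fell in LPN against SPN (background 5.54%) and 6 did not pass. They were the oocyte growth factor genes Bmp15, from 550.3 ± 129 to 211 ± 68.1 CPM (limma adjusted p = 0.00564), and Gdf9, from 159.9 ± 39.4 to 61.9 ± 9.62 CPM (adjusted p = 0.0096; SD, n = 3). Both therefore went with Oosp1 and Oosp3, and not with Zp3. The list of sperm binding and fusion held egg surface genes together with Gpi1, Piga and Pigm, which encode enzymes. Of 9 tested genes of this list 2 fell and 1 rose (background 5.54% and 3.26%). Izumo1r, which encodes JUNO, the egg receptor of sperm IZUMO1, fell from 20.9 ± 10.9 to 4.65 ± 4.04 CPM (adjusted p = 0.0299), and the integrin gene Itga9 fell from 107 ± 54.4 to 39.6 ± 12.3 CPM (adjusted p = 0.0399). The tetraspanin gene Cd9, which eggs need for fusion, rose from 99.99 ± 60.3 to 189 ± 25.9 CPM (adjusted p = 0.0447). These calls held in 16 of 19 alternatives for Bmp15, 17 for Gdf9, 11 for Izumo1r, 6 for Itga9 and 5 for Cd9.

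Of 18 cortical granule traffic genes 1 rose and 1 fell in LPN against SPN, shares near those of all tested genes (3.26% and 5.54%). The SNARE gene Snap23 rose from 139 ± 31.6 to 287 ± 69.9 CPM (limma adjusted p = 0.0264) and the myosin gene Myo5b fell from 101 ± 33.7 to 43.9 ± 5.61 CPM (adjusted p = 0.0349; SD, n = 3). Of 12 genes of zona protein processing, transglutamination and zinc transport 2 fell, the proprotein convertase gene Pcsk5 (5.19 ± 3.14 to 0.355 ± 0.199 CPM, adjusted p = 0.0391) and the zinc importer gene Slc39a6 (87.6 ± 50.5 to 30.6 ± 9.43 CPM, adjusted p = 0.0438). Plat, the tissue plasminogen activator gene, fell in LPN against EPN, from 23.3 ± 8.23 to 4.71 ± 4.15 CPM (adjusted p = 0.0389). The astacin protease gene Tll1, a relative of Astl, fell in LPN against SPN from 12.1 ± 3.12 to 1.87 ± 1.39 CPM (adjusted p = 0.0233), and Mep1b, the other astacin tested, did not pass. The calls held in 12 of 19 alternatives for Snap23, 9 for Myo5b, 6 for Slc39a6, 11 for Plat and 13 for Tll1, and in 8 of 18 for Pcsk5. DESeq2 gave no adjusted p for Pcsk5, which was counted as not held.

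Of 11 genes of egg activation 3 fell and 1 rose in LPN against SPN, where 5.54% and 3.26% of all tested genes did. Wee2, an oocyte kinase gene of meiotic arrest and exit, fell from 944 ± 184 to 344 ± 63.2 CPM (limma adjusted p = 0.00333), a call that held in all 19 alternatives. It also fell against EPN, from 775 ± 244 CPM (adjusted p = 0.0389), a call that held in 9 of 19 alternatives. It was lost with a pseudocount of 0.1 (adjusted p = 0.0597), no filter (0.111), both rescalings (0.0992 and 0.0909) and edgeR (0.131), and without EPN A, EPN C, LPN A, LPN B or LPN C (0.226, 0.171, 0.0848, 0.182 and 0.075). The calcium pump gene Atp2a2 fell from 149.7 ± 54.1 to 58.5 ± 9.16 CPM (adjusted p = 0.0145) and the kinase gene Camk2g from 38.2 ± 22.7 to 10.6 ± 4.80 CPM (adjusted p = 0.0286). The calcium channel gene Orai1 rose from 31.3 ± 7.44 to 78.9 ± 29.9 CPM (adjusted p = 0.0418). These calls held in 15 of 19 alternatives for Atp2a2, 12 for Camk2g and 10 for Orai1. Of 7 tested genes of other ZP domain proteins and Plac1, limma called 0 in LPN against SPN (background 8.8%). By limma 1 had an unadjusted p under 0.05 (background 26.9%). Of the 7 genes edgeR called 0 and DESeq2 called 1, where they called 477 and 1890 of all 14876 tested genes. The lowest p among them was that of Tgfbr3, a co-receptor of the TGF-beta family, with a mean of 17.7 ± 7.90 CPM after sham and 4.79 ± 0.511 CPM after later transfer (limma adjusted p = 0.0592; SD, n = 3). The next was Cuzd1, at 3.74 ± 3.43 and 0.949 ± 1.64 CPM (adjusted p = 0.186).

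The listed genes nearest to a call in the early comparison did not pass. In each list they were the ones with the smallest p in EPN against SPN. Higher EPN means were found for Gpi1 (23.1 to 52.8 CPM, limma adjusted p = 0.274), a glycolytic enzyme gene, for Cd9 (99.99 to 175 CPM, 0.286), for the calreticulin gene Calr (109 to 179 CPM, 0.396) and for Plac1 (1.21 to 3.69 CPM, 0.502). Lower EPN means were found for the zinc exporter gene Slc30a1 (163 to 78.3 CPM, limma adjusted p = 0.237), Tll1 (12.1 to 2.80 CPM, 0.27), Cuzd1 (3.74 to 0.495 CPM, 0.375), the SNARE gene Stx4a (8.28 to 2.07 CPM, 0.431) and Slc39a6 (87.6 to 40.8 CPM, 0.437). Gdf9 (0.506), Atp2a2 (0.58), Bmp15 (0.622), Wee2 (0.707) and Mep1b (0.926) had larger adjusted p-values by limma. Cd9 and Zp3 had means above SPN after both transfers. For both genes EPN and SPN overlapped and the early difference did not pass.

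In the lists without a call between LPN and EPN the smallest p belonged to genes that were mostly lower in LPN. They were Gpi1 (52.8 to 19.7 CPM, limma adjusted p = 0.0532), Bmp15 (419 to 211 CPM, 0.0802), Izumo1r (15.5 to 4.65 CPM, 0.0972) and Myo5b (87.5 to 43.9 CPM, 0.118). Padi6, an oocyte cytoplasmic lattice gene, went from 94.8 to 52.1 CPM (limma adjusted p = 0.167), Gdf9 from 107 to 61.9 CPM (0.175) and Tgfbr3 from 12.2 to 4.79 CPM (0.242). Tectb, a gene of the tectorial membrane, was listed at 0 in the 3 LPN libraries and averaged 2.12 ± 1.62 CPM in EPN (limma adjusted p = 0.2; SD, n = 3). Tll1 (0.702) and Mep1b (0.95) were farthest from the threshold.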

How the data were processed

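Per the submitters' processing notes, the tools included HISAT2 2.2.1 and Trim Galore 0.6.7, with edgeR in R 3.3.3, and the build was GRCm39; the read counter and annotation are not given in the sources used here. Per the labels, libraries were made with the Smart-seq2 v4 and Nextera XT kits and read as 150-bp paired ends. The authors deposited CPM for 19359 genes in 9 libraries. Dividing the deposited CPM by the worth of 1 read gave whole reads for 100% of values (tolerance 0.01 reads), and so the library totals; reads outside the listed genes made up 3.66% to 5.68% of them. A count of 0 allows up to 3 reads, 0.193 to 0.394 CPM, for counting error only.

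Genes reaching 1 CPM in 3 or more libraries were tested (14876, all 7 members among them). limma 3.58.1 (R 4.3.3, trend) was fitted to log2(CPM + 1) over the 3 groups, with 6 residual and 25.9 prior degrees of freedom; folds on this scale understate changes of low genes. Replicates are the labels' libraries, and nothing says that they are separate cultures or days. The p-values therefore refer to spread between libraries only. For each gene limma pooled that spread over the 3 groups and drew it toward a trend over all tested genes. Alternatives were a pseudocount of 0.1, no filter, a mean of at least 5 CPM, median-of-ratios and TMM scaling, edgeR 4.0.16 and DESeq2 1.42.0 on recovered reads, 6 libraries only, a replicate block, array weights and leaving out each library. The pipeline was tested on simulated data. Library letters were not used as pairs. Between groups, deviations correlated at -0.02 to 0.09 for libraries of the same letter and at -0.10 to 0.10 for different letters.

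All 7 members were named. Of the listed genes the text names, per comparison, at most 4 called genes of a list, or, where a list had no call, its 2 genes of lowest p; pattern genes were the 3 with the highest r per member. Members and lists were chosen with earlier results of these data known. Marker lists covered 2-cell embryo, oocyte, cumulus and granulosa, sperm and blood. Neighbour order, promoters and lengths come from RefSeq GRCm38.p6 and GENCODE M21.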

Additional observations from a re-analysis of the deposited data

How the results depend on the processing

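There were 21 member differences under 19 alternatives each, 399 values in all. Of these, 370 kept their direction and side of the threshold, 11 lost and 7 gained a call. Another 11 changed sign, all among differences without a call. Only Zp3, Oosp1 and Oosp3 in LPN against SPN had a call to lose, and 3, 7 and 1 of their 19 alternatives lost it. For the other differences a kept side means no call. DESeq2 gave no adjusted p for Astl in LPN against EPN, and that value was counted as not called. Leaving out a library of the group outside a comparison left its log2 difference as it was. Leaving out libraries gave Zp1 in EPN against SPN a range of -0.62 to 0.24, Astl -1.01 to 0.18, Zp1 in LPN against EPN -0.89 to 0.072, Zp2 -0.42 to 0.54 and Oosp3 -0.45 to 0.036; Astl in EPN against SPN was 0.14 with edgeR and 0.13 with DESeq2. Calls gained and not given above were with array weights, Oosp2 and Oosp3 for the early and Astl for the later group against SPN (adjusted p = 0.0309, 0.0178 and 0.04). The cause was not tested.

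Counts of all called genes moved more. EPN against SPN had 16 calls, and 4 with a pseudocount of 0.1, 3 with median-of-ratios scaling, 6 with TMM scaling, 116 with DESeq2, 313 with array weights and 0 to 451 without single libraries. It had 0 with no filter, edgeR and the 6 libraries (1859, 1304 and 1510 at an unadjusted p under 0.05). LPN against SPN had 1309, and 494 with no filter, 477 with edgeR, 659 with the 6 libraries, 2731 with array weights and 96 to 2733 without single libraries. LPN against EPN had 228, and 62 with the pseudocount, 0 with no filter (3015 at an unadjusted p under 0.05 by limma), 395 with a mean of at least 5 CPM, 17 with edgeR, 935 with DESeq2, 464 with the 6 libraries, 1321 with array weights and 4 to 762 without single libraries. The F test had 852, and 546 with the pseudocount, 0 with no filter (3805 at an unadjusted p under 0.05 by limma), 110 with edgeR, 1739 with DESeq2, 2891 with array weights and 39 to 2542 without single libraries. The replicate block gave 25 calls for the early comparison, 1644 for the later, 480 between the transfers and 1255 by the F test. It changed no call of a member. The labels do not say whether the letters stand for batches. Depth limits Astl, with 6 reads in LPN B.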

Other observations

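Some relatives of these genes had low levels that varied between libraries. Zp4-ps, the pseudogene that mouse carries in place of a working Zp4, ran from 0 to 3.05 CPM. Zp3r, a sperm gene named for its protein's proposed binding to ZP3, had 3.01, 4.25 and 2.27 CPM in SPN A, B and C and 2.03 CPM in EPN B, and was at 0 in the other 5 libraries. Plac1, the relative of the Oosp genes, ran from 0 in SPN C to 7.16 CPM in EPN A.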
